A study of Mus musculus with 2 samples.

Results

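The cerebellin genes Cbln1, Cbln2, Cbln3 and Cbln4 and the delta glutamate receptor gene Grid1 were examined for open chromatin in the newborn mouse hindbrain. These 5 genes were taken by name from the mouse gene annotation, which lists 21938 protein-coding genes on the chromosomes used. Chromatin accessibility had been measured by DNase-seq, in which the enzyme DNase I cuts DNA that is not wrapped tightly or covered by proteins, and the cut ends are sequenced. The study holds 1 group: hindbrain tissue of strain B6NCrl at postnatal day 0, with male and female animals pooled and described as healthy, in 2 biological replicates. The labels name no treatment, mutant allele or second condition, and both replicates carry the same donor record. Whole tissue was used, so open chromatin in a minority of cells and weaker opening in many cells could not be told apart.

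Cerebellins are small secreted proteins of the C1q family that assemble into larger complexes in the synaptic cleft. In the cerebellum, Cbln1 is released by granule cells; it binds neurexins on their parallel fibre endings and a delta glutamate receptor on Purkinje cells, and so holds the synapse together. Cbln2 and Cbln4 bind neurexins at other synapses, Cbln4 can also bind the netrin receptor DCC and its relative neogenin, and Cbln3 leaves the cell only together with Cbln1. Grid1 encodes GluD1, a postsynaptic receptor that cerebellins bind and that works as an adhesion partner rather than as a usual glutamate-gated channel. At birth the cerebellar granule cells are still being produced, and most parallel fibre synapses have yet to form.

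The sequences below are stretches upstream of 2 genes, open only in part, and 5 distal regions. The strongest promoter peak of each gene is not among them. The RefSeq promoter table (mm10) had entries for 2 of the 5 genes, Cbln3 and Cbln4. Their stretches upstream of the annotated gene are shown 5′ to 3′ with capitals for the bases in a merged region, which joins overlapping peaks of the replicates and can be wider than either. At Cbln3 the peaks of both replicates crossed the start of the gene. At Cbln4 the replicate 1 peak crossed it and holds the capitals, and the replicate 2 peak ended 21 bp inside the gene.
Cbln3 upstream (chr14:55884393-55884506, minus strand): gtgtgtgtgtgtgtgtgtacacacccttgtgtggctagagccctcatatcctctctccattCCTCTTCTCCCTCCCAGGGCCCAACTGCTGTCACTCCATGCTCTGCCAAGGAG
Cbln4 upstream (chr2:172043467-172043716, minus strand): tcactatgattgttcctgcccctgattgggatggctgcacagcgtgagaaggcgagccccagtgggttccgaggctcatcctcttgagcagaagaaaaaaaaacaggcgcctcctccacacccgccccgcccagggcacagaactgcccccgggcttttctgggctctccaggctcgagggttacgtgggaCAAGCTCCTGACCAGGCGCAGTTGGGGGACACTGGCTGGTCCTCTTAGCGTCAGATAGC

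The next 5 sequences are distal regions that were among the 3 strongest of their gene, read from the mm10 reference genome. Cbln1 region 1 was the strongest region of a group of 7 that lay 237 to 253 kb downstream of the 5′ end of the gene, and Cbln1 region 2 belonged to the same group. Cbln4 regions 1 and 3 lay in the gene-poor sequence downstream of Cbln4, and Grid1 region 1 lay in an intron, 3.22 kb into Grid1. Capitals mark a match to TGACGTCA, the cAMP response element, in Cbln1 region 1, and matches to CAGCAGG or its reverse complement, a short form of the site bound by Zic factors, in the Cbln4 regions. The other 2 sequences held none of the 6 motifs searched and have no capitals. The second strongest distal region of Cbln4, 101 kb downstream, is not shown and also held none of them.
Cbln1 region 1 (chr8:87233876-87234165, plus strand): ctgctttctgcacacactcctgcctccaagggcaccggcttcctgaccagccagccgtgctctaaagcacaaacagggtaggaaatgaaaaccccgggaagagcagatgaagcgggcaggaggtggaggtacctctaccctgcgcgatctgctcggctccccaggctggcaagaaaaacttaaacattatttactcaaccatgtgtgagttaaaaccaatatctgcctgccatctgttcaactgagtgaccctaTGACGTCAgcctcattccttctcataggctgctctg
Cbln1 region 2 (chr8:87235856-87236045, plus strand): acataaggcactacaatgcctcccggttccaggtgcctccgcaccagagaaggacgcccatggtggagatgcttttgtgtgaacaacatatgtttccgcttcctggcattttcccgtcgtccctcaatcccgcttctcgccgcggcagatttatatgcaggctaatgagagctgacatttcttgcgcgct
Cbln4 region 1 (chr2:172006076-172006245, plus strand): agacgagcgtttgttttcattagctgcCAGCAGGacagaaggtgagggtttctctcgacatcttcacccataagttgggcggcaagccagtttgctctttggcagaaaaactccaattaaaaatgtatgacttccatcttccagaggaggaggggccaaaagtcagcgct
Cbln4 region 3 (chr2:171847216-171847385, plus strand): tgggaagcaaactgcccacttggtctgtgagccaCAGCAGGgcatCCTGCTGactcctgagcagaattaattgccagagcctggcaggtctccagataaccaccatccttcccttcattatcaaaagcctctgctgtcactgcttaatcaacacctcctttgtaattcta
Grid1 region 1 (chr14:34823256-34823405, plus strand): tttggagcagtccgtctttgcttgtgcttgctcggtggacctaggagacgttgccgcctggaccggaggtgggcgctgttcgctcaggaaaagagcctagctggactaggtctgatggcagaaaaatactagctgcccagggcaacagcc

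The lists of peaks held 271150 intervals in replicate 1 and 172002 in replicate 2, each 150 bp wide, with a score from 1 to 150. Scores ran higher in replicate 1, at 96.2% of the 136714 regions found in both replicates, so each score was also given as a percentile of its own list. The tissue label was checked against promoter peaks of defining genes. All 12 hindbrain and cerebellum genes, among them En2, Atoh1 and Hoxa2, had a promoter peak in both replicates, against 4 of 8 forebrain genes, 0 of 6 liver genes and 0 of 6 blood genes. Read singly, replicate 1 had a peak at 7 of the 8 forebrain genes and replicate 2 at 5. Of microglial genes 1 of 4 (P2ry12) and of endothelial genes 2 of 4 (Kdr and Cldn5) had one. What share of the peaks near the cerebellins came from such minor cell types was not tested.

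All 5 genes had a peak within 500 bp of a start site in both replicates, where 66.3% of all protein-coding genes did (14541 of 21938). The strongest promoter peak scored 142 in replicate 1 and 126 in replicate 2 at Cbln1, 133 and 111 at Cbln3, 124 and 101 at Grid1, and 123 and 102 at Cbln2. The strongest at Cbln4 scored 65 and 53. Cbln1 was thus the highest and Cbln4 the lowest in each replicate, while Cbln2 and Grid1 differed by 1 point, in opposite directions in the replicates. The peaks read for Cbln1 and Cbln3 also lay close to or over start sites of Gm2694 and Khnyn. The order is a description of 2 libraries, with no test.

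**Figure D1:**
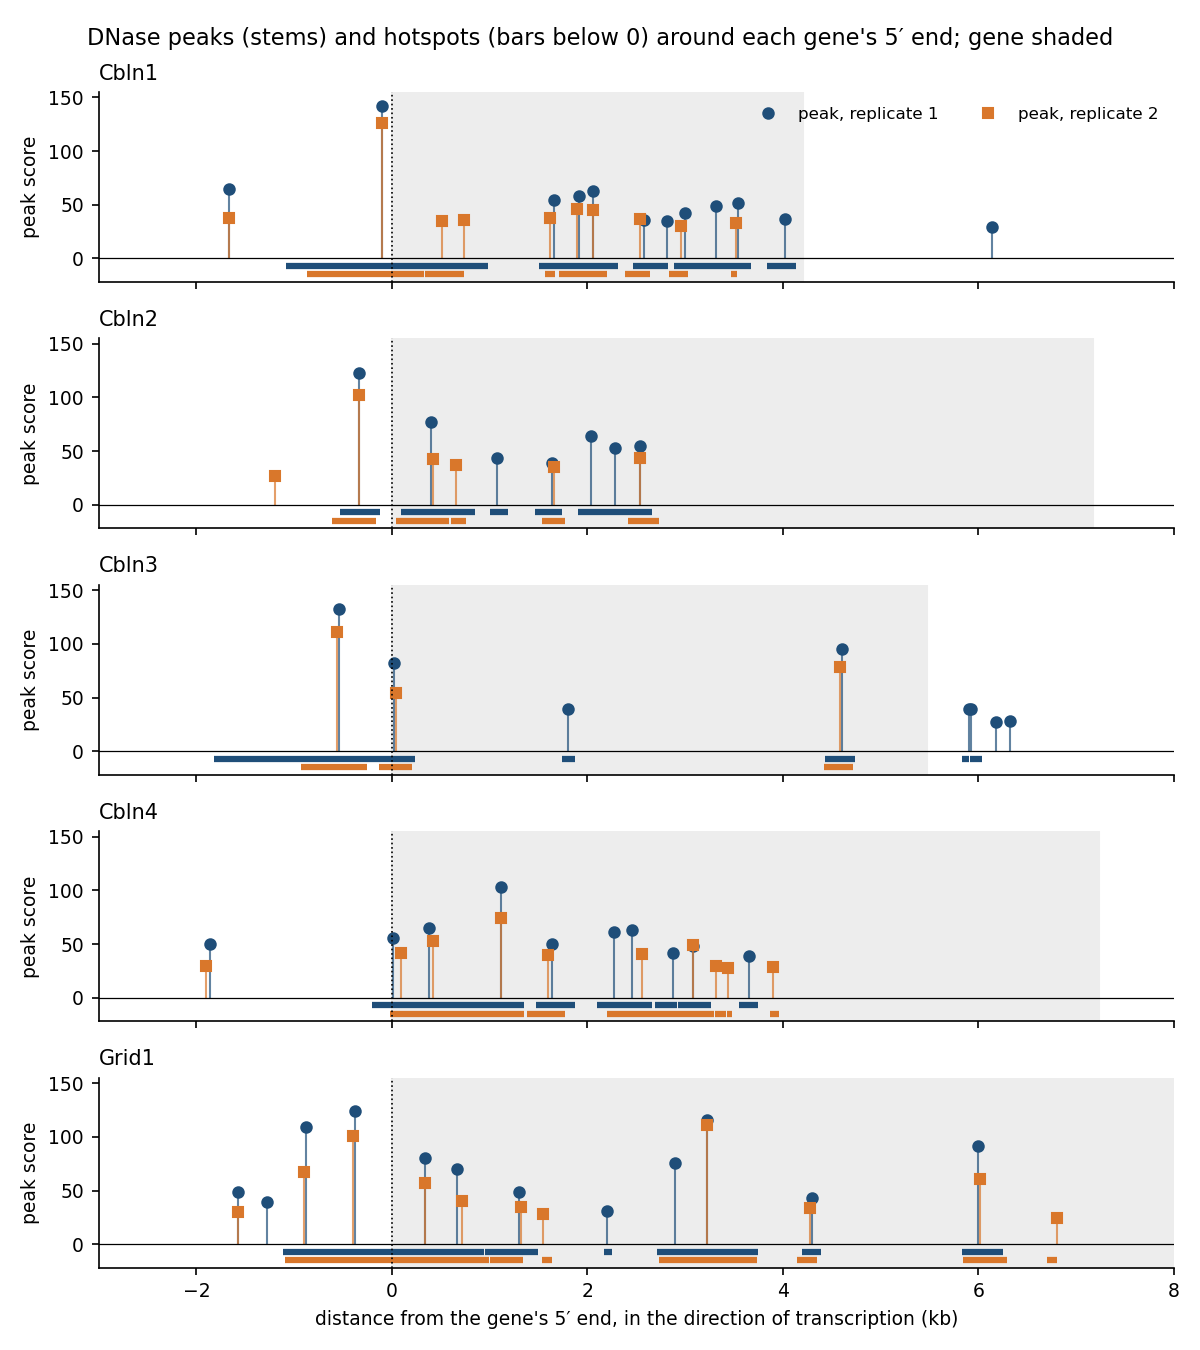
Peaks assigned to each gene around its 5′ end, as stems at the peak centre with the peak score on the y axis, and hotspots (wider zones of raised DNase cutting) as bars below 0, for replicate 1 (blue) and replicate 2 (orange). The x axis is the distance from the 5′ end in kb, positive into the gene, which is shaded. Cbln1, Cbln2, Cbln3 and Grid1 have their tallest promoter stem before the 5′ end, with replicate 1 scores of 123 to 142. The tallest promoter stem of Cbln4 is 65, and a gene body peak of 103 stands farther inside that gene.

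Cbln1, on the minus strand at chr8:87468405-87472609, has 3 annotated start sites. Its strongest peak lay 27 bp upstream of the outermost start and took in the bases 87472636 to 87472785 in both replicates, with percentiles of 99.4 and 98.3. The sequence under this peak was 74.7% G and C. The hotspot around it was 2072 bp wide in replicate 1 and 1200 bp in replicate 2, and reached the cap of 100 on the −log10 q scale in both. The lincRNA Gm2694 runs through Cbln1 on the other strand and has 6 start sites between 203 and 785 bp upstream of it, and the hotspot of each replicate also took in start sites of Gm2694. The strongest peak lay between the outermost Cbln1 start, at base 87472609, and the nearest Gm2694 start, at base 87472812. It stood equally far from both, so its score could not be assigned to 1 of the 2 genes.

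The innermost Cbln1 start, of a processed transcript that begins 1541 bp into the gene, had a weaker pair of shared regions with scores of 63 and 46 and of 54 and 38. Beyond them, 3 regions in the part of the gene annotated as UTR scored 36 to 52 in replicate 1 and 30 to 37 in replicate 2. Hotspots covered 76.9% of Cbln1 in replicate 1 and 43.9% in replicate 2. Among the 2675 genes of 3 to 10 kb with a promoter peak in both replicates, the median cover was 14.5% and 12.2%, and Cbln1 lay above 99% and 96.2% of them. Cbln1 was open over much of its short length, more so in replicate 1. This was not particular to Cbln1. Cbln4 had a cover of 42.7% and 42.9%, above 93% and 95.8% of the same genes, and so stood close to Cbln1 in replicate 2. Cbln2 had 27.7% and 17.5%, and Cbln3 12.3% and 9.12%, below the median in both replicates.

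Cbln2, at chr18:86711110-86718283 on the plus strand, has 4 start sites. Its strongest peak lay 265 bp upstream of the outermost start, with scores of 123 and 102 and percentiles of 96.2 and 94.1. A second shared region, scoring 77 and 43, covered the start 410 bp inside the gene. The innermost start, 1938 bp inside, had a peak of score 64 at a distance of 28 bp in replicate 1 but in replicate 2 none nearer than 203 bp, where a shared region scored 39 and 35. Of the 6 promoter peaks of replicate 1 and the 4 of replicate 2, 3 in each overlapped a peak of the other replicate. Those found in replicate 1 alone scored 44, 53 and 64, all below its pair of strongest promoter peaks.

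Cbln3, at chr14:55878913-55884392 on the minus strand, stands head to head with Khnyn, whose nearest start site lies 555 bp away on the plus strand. The peak that scored 133 and 111 within 500 bp of Cbln3 lay over annotated start sites and UTR sequence of Khnyn, 464 and 484 bp from the Cbln3 start. The region over the start of Cbln3 itself, at bases 55884276 to 55884445, scored 82 and 54, at percentiles 83.3 and 70.4. This region lay above the best promoter region of 12.8% of the genes with one in both replicates, whereas the region shared with Khnyn lay above 53.7%. The strength at the Cbln3 promoter therefore depended on which of the 2 regions was read as its own. In replicate 1 a single hotspot of 2055 bp spanned both regions; in replicate 2 they were separate, 341 bp wide at Cbln3 with a −log10 q of 5.15 and 677 bp at Khnyn at the cap.

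Cbln4, at chr2:172036233-172043466 on the minus strand, has a single start site. A merged region at this start scored 56 in replicate 1, where the peak covered the start, and 42 in replicate 2, where the peak ended 21 bp inside the gene, and a region 301 bp inside the gene scored 65 and 53, at percentiles 72.7 and 69.4. Its best promoter region lay above that of 9.97% of the genes with one in both replicates. Another region, at bases 172042276 to 172042425, was stronger than either in both replicates, with scores of 103 and 74. It lay in coding sequence 1041 bp from the start and was 74% G and C. In replicate 2 a single hotspot of 1377 bp at the cap joined all 3 regions. The most accessible sequence of Cbln4 was thus in coding sequence near its 5′ end and not at its annotated start, in each replicate.

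Grid1, at chr14:34820108-35583379 on the plus strand, spans 763 kb, far more than the 4.21 to 7.23 kb of the cerebellin genes. Its strongest promoter peak lay upstream of the outermost start, with scores of 124 and 101 and percentiles of 96.4 and 93.9. A region 268 bp inside the gene scored 80 and 57. The 2 other annotated starts, of processed transcripts that begin 630240 and 749886 bp into the gene, had no peak within 500 bp in either replicate. The sequence within 500 bp of the 5′ end was 76.7% G and C, a higher share than in 99.6% of genes. Cbln1 was similar at 73.6%, whereas Cbln2, Cbln3 and Cbln4 had 54.2, 58.4 and 60.2%, against a median of 54.7% over all genes.

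**Figure D2:**
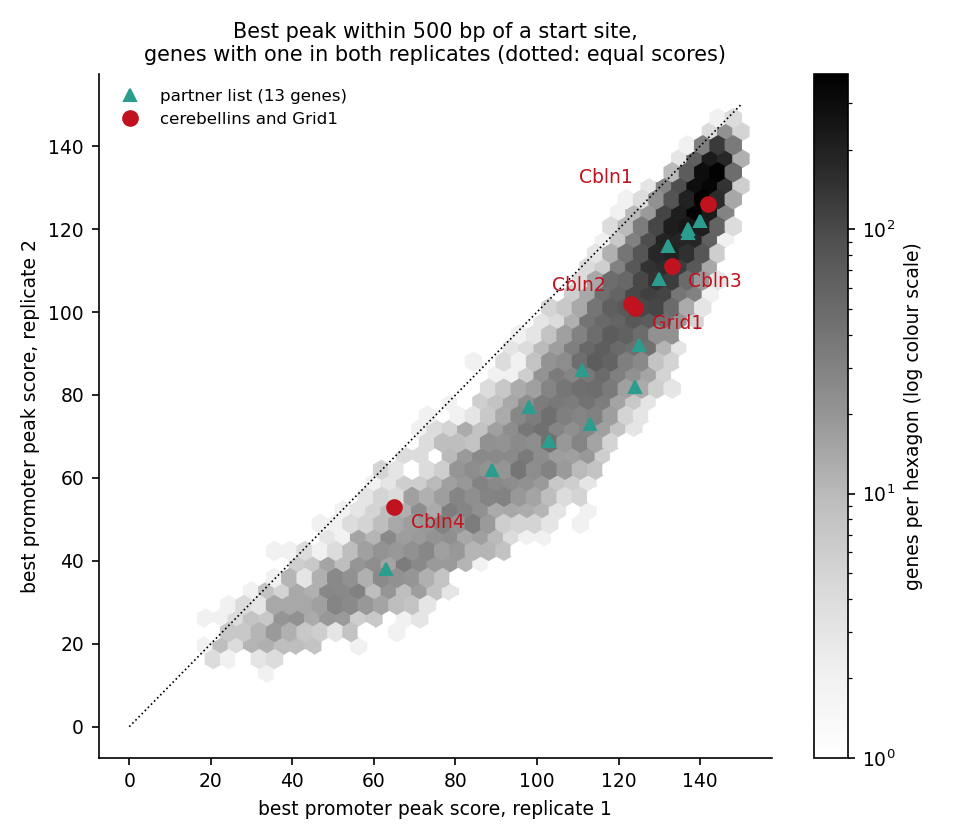
Best promoter peak score of each gene in replicate 1 (x axis) and replicate 2 (y axis), for genes with a promoter peak in both. Grey hexagons hold all such genes on a log colour scale, red points the 5 genes described here and green triangles the 13 partner genes with both. Cbln1 sits at the dense upper end at 142 and 126, and Cbln4 far below at 65 and 53.

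Over all genes with a promoter peak in both replicates, the median of the best score was 129 in replicate 1 and 109 in replicate 2. The strongest Cbln1 peak, which stood between starts of Cbln1 and Gm2694, was above these medians in both replicates. So was the region that Cbln3 shares with Khnyn. Cbln2 and Grid1 were below them in both, above 40.7% and 40.6% of genes. CpG content also varied among the 5. The observed-to-expected CpG ratio around the 5′ end was 0.894 at Grid1, 0.88 at Cbln1, 0.755 at Cbln2, 0.639 at Cbln4 and 0.259 at Cbln3, with a median of 0.552 over all genes. Cbln3 had the lowest ratio, yet the region at its own start scored above the best promoter region of Cbln4 in replicate 1, 82 against 65, and within 1 point of it in replicate 2, 54 against 53.

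Distal regions were those more than 500 bp from every annotated start site and found in both replicates. Each was assigned to the protein-coding gene with the nearest start of any transcript, which at Grid1 included the starts of its processed transcripts. By this rule Grid1 had 43, Cbln4 40, Cbln1 27, Cbln2 9 and Cbln3 2, together 121, where the median gene had 2 and the mean was 4.9. In replicate 1 alone the counts were 102, 90, 55, 21 and 5 in the same order, and in replicate 2 alone 53, 49, 28, 14 and 2. Most of these regions were of ordinary strength. Their median scores were 57 in replicate 1 and 38 in replicate 2, against 60 and 40 over all 107430 distal regions. Assignment by the nearest start is a convention of position and does not show which gene a region acts on.

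**Figure D3:**
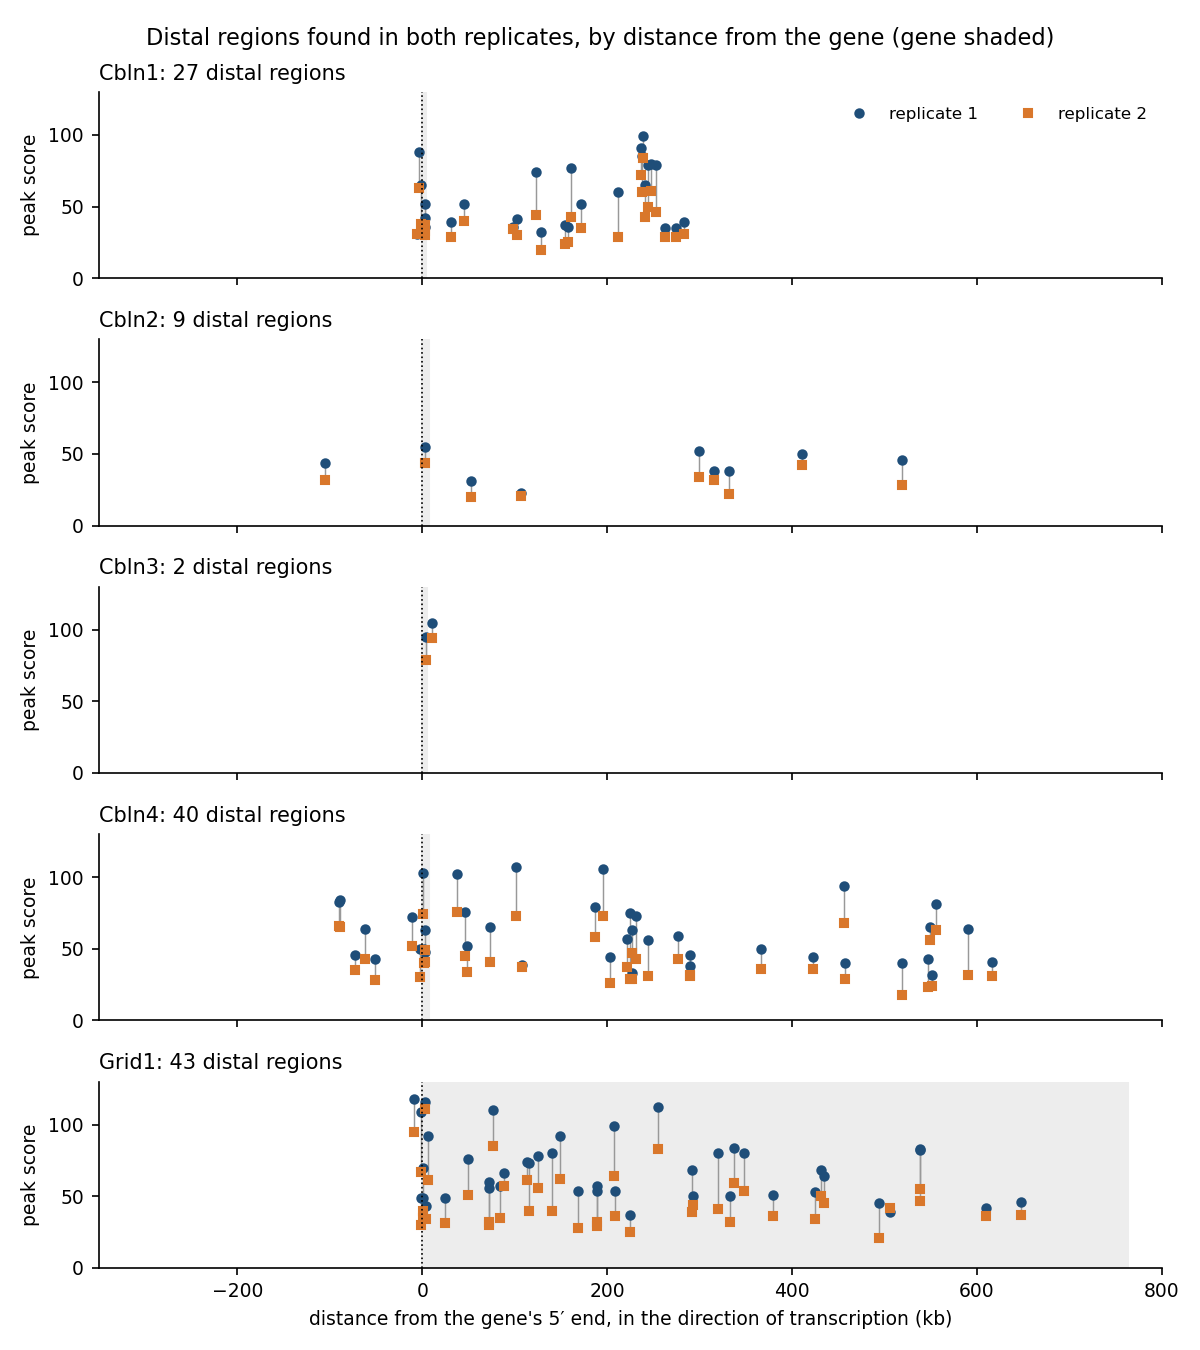
Distal regions of each gene found in both replicates, by distance from the 5′ end in kb (x axis, positive in the direction of transcription, gene shaded) and peak score (y axis) in replicate 1 (blue) and replicate 2 (orange), joined by a line. Cbln1 shows a group of 7 regions between 237 and 253 kb, Cbln4 is spread from the gene to 616 kb, Grid1 is densest in the first part of the gene, and the 9 regions of Cbln2 stay at or below 55.

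The distal regions of Cbln1 were lopsided, with 24 downstream of the 5′ end and 3 upstream. The sequence assigned to Cbln1 by the nearest start was lopsided in the same direction. The next protein-coding start was 587 kb away downstream and 91.2 kb upstream. A group of 7 lay within 16.9 kb, between 237 and 253 kb from the 5′ end, at chr8:87219176-87236045. All 7 were in an intron of the lincRNA Gm27169. They scored 65 to 99 in replicate 1 and 43 to 84 in replicate 2, and the strongest, Cbln1 region 1 above, lay in a hotspot of 1413 bp in replicate 1 and 1074 bp in replicate 2 at the cap. The 7 regions included 4 of the 5 Cbln1 distal regions with a replicate 1 score of at least 80. The fifth was 3.13 kb upstream of the gene in an intron of Gm2694 and scored 88 and 63.

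Such a group was not unusual among genes with many distal regions. Of the 1272 genes with 20 or more, 30.7% had at least 7 within 20 kb, and the median was 6. Grid1 had a denser group, of 8 distal regions within 15.3 kb around its 5′ end, a number that 16% of these genes reached. Cbln4 had 6 within 14 kb, also around its 5′ end. Between the group of 7 and Cbln1, 11 regions between 31.4 and 212 kb from the 5′ end scored 32 to 77 in replicate 1. The next protein-coding start on that side, of N4bp1, was 587 kb from Cbln1, and the first on the other side, of 4933402J07Rik, was 91.2 kb away.

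Cbln4 lay in gene-poor sequence, 1312 kb from the start of Dok5 on one side and 205 kb from that of Mc3r on the other. Of its 40 distal regions, 35 were outside every annotated gene, 25 were more than 100 kb from the start, and the farthest was 616 kb away. The strongest scored 102 and 76 at 37.3 kb (Cbln4 region 1), 107 and 73 at 101 kb, and 106 and 73 at 196 kb (Cbln4 region 3). All 3 lay downstream of the gene, in hotspots at the cap in both replicates. Each had a higher score than either promoter region of Cbln4 in both replicates. In all, 8 of the 40 regions scored 80 or more in replicate 1, including a region at 456 kb with scores of 94 and 68 and a pair 89.4 and 89.6 kb upstream with scores of 84 and 65 and of 83 and 66.

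Of the 43 distal regions of Grid1, 40 lay in its own introns and 3 upstream. The strongest were Grid1 region 1, 3.22 kb into the gene, with scores of 116 and 111, a region 9.16 kb upstream with 118 and 95, and an intronic region 76.4 kb in with 110 and 85. Replicate 2 ranked the region at 3.22 kb above the promoter peak, 111 against 101, whereas replicate 1 ranked it below, 116 against 124. Another, 255 kb in, scored 112 and 83. Grid1 had 14 regions with a replicate 1 score of 80 or more, the most of the 5 genes.

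The intronic regions of Grid1 found in both replicates were concentrated toward its 5′ end. The first 191 kb of the gene held 20 of the 40, the next 191 kb 11, the third stretch 7 and the last 2. No shared region was found in the final 115 kb of the gene, after one at 648 kb. Over the same 4 stretches, replicate 1 alone had 41, 32, 9 and 17 peaks and replicate 2 had 25, 17, 9 and 3. The last stretch thus held the fewest peaks in replicate 2 but more than the third in replicate 1. Over the 205 protein-coding genes of at least 500 kb with at least 10 regions in the gene body, the median share in the first 25% of the gene was 23.9%, with quartiles of 17.9 and 30.6%. Grid1, with 50%, lay above 97.1% of them. Its overall density of 5.24 regions per 100 kb was above that of 70.4% of the 230 genes of this length, whose median was 4.

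Cbln2 and Cbln3 had few distal regions, with different settings. Around Cbln2, 9 regions were found, of which 8 lay outside the gene and 7 more than 100 kb away, with scores of 23 to 55 in replicate 1 and 20 to 44 in replicate 2. None exceeded the median of all distal regions, 60, in replicate 1, while in replicate 2 those scoring 44 and 42 exceeded its median of 40. The strongest, scoring 55 and 44, was in an intron of Cbln2, 528 bp from an annotated start of that gene. With promoter windows of 1000 bp it was no longer distal, which left 8 distal regions at Cbln2. Around Cbln3, the 2 regions were both strong. One, 10.4 kb downstream of the 5′ end, scored 105 and 94 and lay in annotated UTR sequence of the neighbouring gene Nynrin. It also overlapped Gm26751 and was 610 bp from the nearest annotated start of any gene. With promoter windows of 1000 bp it was no longer distal, which left 1 distal region at Cbln3. The other scored 95 and 79, 4.59 kb into Cbln3 and also in annotated UTR sequence.

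The number of distal regions followed, in part, how much sequence lay nearest to each gene. That stretch was 0.912 Mb for Grid1, 0.758 Mb for Cbln4, 0.63 Mb for Cbln2, 0.34 Mb for Cbln1 and 0.0155 Mb for Cbln3. Per Mb, Cbln3 had 129 regions, Cbln1 79.4, Cbln4 52.7, Grid1 47.1 and Cbln2 14.3, and all genes together had 39.4. Cbln2 alone of the 5 was below that density, and its density lay above that of 35.4% of genes. The value of Cbln3 rests on 2 regions. Cbln1 thus had more regions than Cbln2 in a shorter stretch of sequence.

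**Figure D4:**
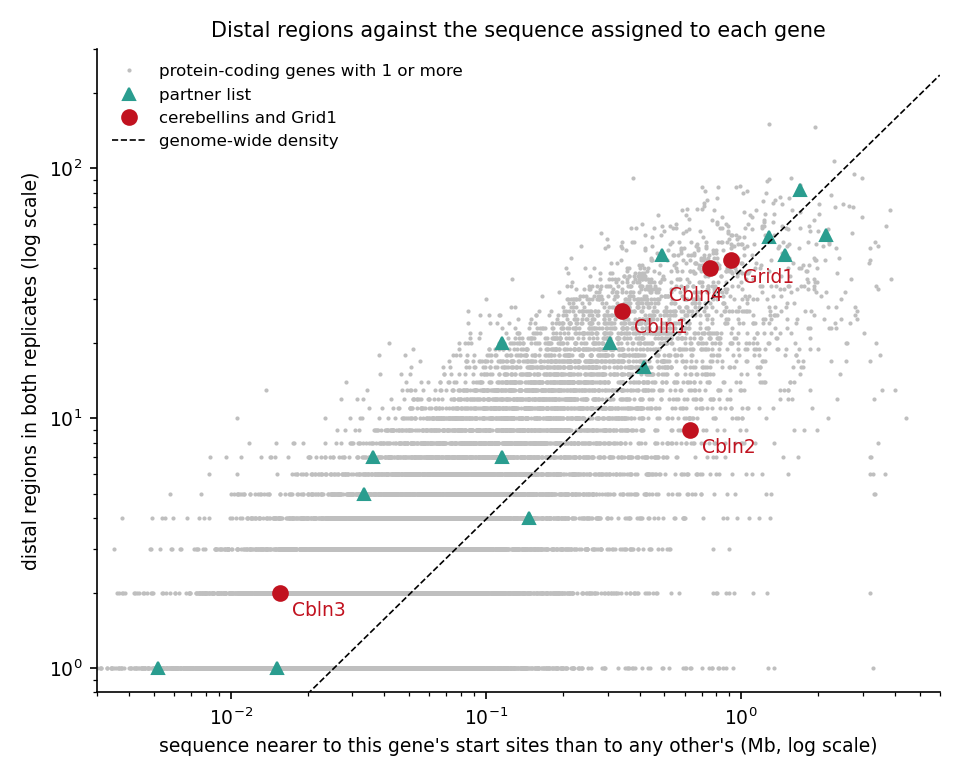
Distal regions found in both replicates (y axis, log scale) against the length of sequence nearest to each gene's start sites (x axis, Mb, log scale), for protein-coding genes with at least 1 such region. Red points are the 5 genes described here, green triangles the partner genes and the dashed line the density of 39.4 per Mb over all genes; Cbln2, with 9 regions in 0.63 Mb, is the red point below the line.

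The replicates held different numbers of peaks around the 5 genes, as they did genome-wide. In replicate 1, 296 peaks were assigned to them, of which 137 (46.3%) overlapped a peak of replicate 2. In replicate 2 there were 169, of which 138 (81.7%) overlapped one of replicate 1. Over the genome these shares were 51.6% and 82.5%. Peaks found in 1 replicate were weaker, with median scores of 35 in replicate 1 and 27 in replicate 2, against 58 and 40 for those found in both. Across the 133 regions shared by the replicates, of all classes, Spearman's rho of the scores was 0.875, with 0.913 over all shared regions; these regions come from the same 2 libraries and are not independent.

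Genes that work with cerebellins and delta receptors were read from a list of 14. A promoter peak was found in both replicates at 13 of them, against the 66.3% of all genes, and the exception, C1ql4, which encodes a relative of the cerebellins, had one in replicate 1, of score 38. Among the neurexins, the presynaptic receptors, Nrxn2 scored 137 and 119 and Nrxn3 124 and 82. The other C1q-like genes ranged from 125 and 92 at C1ql1 through 89 and 62 at C1ql3 to 63 and 38 at C1ql2, while Adgrb3, a receptor for C1q-like proteins, scored 130 and 108. Like Cbln4, C1ql2 stood in the lowest part of the genes with both, above 6.35% of them.

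Of the netrin receptor genes, whose products can bind Cbln4, Dcc scored 132 and 116, and Neo1, which encodes neogenin, 140 and 122. The genes of postsynaptic scaffold proteins, Shank2 and Homer3, were lower. Shank2 scored 111 and 86, and Homer3 113 and 73. With only the outermost start of each gene counted, Shank2 had no promoter peak in both replicates. The distal regions of the list ranged from 1 at C1ql4 and Homer3 to 82 at Nrxn3, with a median of 18, against 2 over all genes. Adgrb3 had 53, and Shank2 and Dcc had 45 each. The order differed per Mb of sequence nearest to each gene, where all genes together had 39.4. Nrxn3 had 48.1 per Mb, Adgrb3 41.3, Dcc 30.5 and Shank2 91.7. With 1 region each, C1ql4 had 193 per Mb and Homer3 65.8.

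Short motifs were counted on both strands in the central 150 bp of the distal regions. CAGCTG, an E-box form, was found in 22 of the 121 regions, 18.2%, where 17.1% of all distal regions held it. Of the 22, 12 were among the 40 regions of Cbln4, which supplied more of the 121 than most of the 5 genes. CAGCAGG was found in 13, 10.7% against 9.93%, and 7 of these were among the 40 of Cbln4. TGANTCA, the AP-1 site, was found in 8 (6.61% against 5.31%), TAATTA, a homeodomain core, in 3 (2.48% against 5.13%), and TGACGTCA in 1, at Cbln1 (0.826% against 0.314%). The palindrome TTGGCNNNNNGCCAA, bound by NFI factors, was found in 0, and 0.214% of all distal regions held it. The TGACGTCA in capitals in Cbln1 region 1 lay outside the central 150 bp and is not in this count.

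Neither upstream sequence shown for Cbln3 and Cbln4 held any of the 6 motifs. The Cbln3 sequence was only 114 bp long, so it is not directly comparable with the shares below. Over the 250 upstream bases of the 32851 promoters of the table, CAGCTG was present in 13%, CAGCAGG in 8.44%, TGANTCA in 6.75%, TAATTA in 4.84%, TGACGTCA in 1.55% and the NFI palindrome in 0.0365%. These matches are descriptions of letters and not of bound factors. The median G and C content of the distal regions was 50.7% over the 5 genes and 50% over all distal regions, and ranged from 46.7% at Cbln2 to 55% at Cbln3.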

How the data were processed

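DNase-seq peaks and hotspots of 2 replicates were used as the authors deposited them, in mm10 per the labels. Peaks carry a deposited score, and hotspots a deposited −log10 q, capped at 100. How the score was computed, the aligner, the caller and the read depth are each not given in the sources used here, and the lists hold called regions without reads, so no counting interval was made. The assembled chromosomes kept 270757 and 171790 peaks.

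Start sites came from GENCODE vM21. Promoter peaks lay within 500 bp of any transcript start of a gene, and body regions elsewhere inside it. Distal regions lay over 500 bp from every start and went to the protein-coding gene with the nearest start of any of its transcripts. Peaks of the replicates were merged when they shared 1 bp, keeping each best score. All protein-coding genes were treated alike. With 1 group and 2 replicates, whose spread may be technical, there was no test.

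Named are the 5 genes, 14 partner genes, neighbours, promoter peaks and each gene's 3 strongest distal regions by mean percentile. Other single regions, the group of 7 at Cbln1, the stretches of Grid1 and the hotspot cover were picked from the values. Values of some partner genes are not reported here. Genes, lists and rules were chosen with earlier results of these data known. The code was tested on simulated data (Python 3.11.15, numpy 2.4.6, pandas 2.3.3, pysam 0.24.0, samtools 1.23.1). In all, 9 alternatives were tried.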

Additional observations from a re-analysis of the deposited data

How the results depend on the processing

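All 5 genes kept a promoter peak under the 7 alternatives that apply to promoters. Leaving out a replicate or widening the windows to 1000 bp could not have removed one, so those outcomes were fixed in advance. The share of all protein-coding genes with one, 66.3%, ranged from 66.8 to 70.8% with 1 replicate left out, and was 62.2% with peaks at or above the median score, 65.4% with lists of equal length, 68.4% with windows of 1000 bp and 60.7% with the outermost start of each gene. The 121 distal regions of the 5 genes became 146 without replicate 1 and 273 without replicate 2, 60 with peaks at or above the median score and 32 within 50000 bp. The 49 regions inside the genes outside promoters became 61 and 113 with 1 replicate left out and 28 with the stronger peaks. Of 105 values of single genes recomputed, 78 stayed within 1.5 times of the value given and 27 did not. The 78 include percentiles of the best promoter peaks, which were unchanged and were too high to rise 1.5 times. All 27 that moved were counts of regions. The 13 of 14 partner genes with a promoter peak in both became 12 with the outermost start of each gene. They became 14 without replicate 2, with hotspots in place of peaks and with windows of 1000 bp. No paired analysis was possible because there is a single group. Read depth is unknown, so a region missing from 1 list was not detected there and may still be open.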
